A study of Mus musculus with 14 samples.

Results

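The 6 genes Gata6, Wt1, Clu, Trf, Rhox5 (formerly Pem) and Hsd17b3, all of the somatic cells of the gonad, were followed across 11 mouse cell lines. They were chosen by name, with earlier results of these data known, and every probe annotated to 1 of them was kept. This gave 10 of the 7680 probes on the array, namely 4 for Trf, 2 for Clu and 1 each for Gata6, Wt1, Rhox5 and Hsd17b3. All 10 had a value on all 14 arrays and entered the tests. On each array total RNA of 1 line (Cy5) was set against 1 common pool (Cy3), sold by Stratagene as a mouse reference. The pool label of mammary tumor array 1 carries the extra letters MRR, which the labels do not explain. A value is the log2 ratio of line over pool, so 0 means a level equal to that of the pool. The labels name the lines by tissue or cell of origin: testis, liver, kidney, skin, mammary tumor, fibroblast, embryo fibroblast, myoblast, macrophage, myeloma and T-cell lymphoma. There were 2 arrays for mammary tumor, for fibroblast and for myeloma, and 1 for each of the 8 remaining lines. The labels name no strain, sex, age, clone or treatment, and their annotation reads primary tissue although the titles read cell line. They do not tie paired arrays to separate cultures, so the spread between arrays of a line may be technical. That spread underlies every p-value except those of blood-cell against other lines, which rest on the spread between line means.

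In the gonad, Sertoli cells nurse the germ cells inside the tubules, Leydig cells between the tubules make testosterone, and granulosa cells surround the oocyte in the ovary. GATA6 is a zinc finger transcription factor of all 3 of these cell types, as well as of heart and endoderm, and WT1 is a zinc finger factor without which neither gonad nor kidney forms, and which Sertoli cells go on making. Clusterin (Clu, once named sulfated glycoprotein 2) and transferrin (Trf) are among the main proteins that Sertoli cells secrete, although liver makes both as well. Rhox5 is an X-linked homeobox gene that androgen induces in Sertoli cells and that is also active in placenta and in many tumor lines. Hsd17b3 encodes the enzyme that turns androstenedione into testosterone.

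Promoter sequences of 2 of the 6 genes, Hsd17b3 and Rhox5, were taken from RefSeq tables (GRCm38.p6). They are shown because GATA6 is a DNA-binding factor of the same cell types and both genes were measured beside it. Each line holds the 250 bases before the start of the transcript, 5′ to 3′ on the strand of the gene, with the letters GATA, or TATC for the other strand, in capitals. The Hsd17b3 window lies at chr13:64089202-64089451 on the minus strand, and the Rhox5 window at chrX:37754358-37754607 on the plus strand.

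Hsd17b3: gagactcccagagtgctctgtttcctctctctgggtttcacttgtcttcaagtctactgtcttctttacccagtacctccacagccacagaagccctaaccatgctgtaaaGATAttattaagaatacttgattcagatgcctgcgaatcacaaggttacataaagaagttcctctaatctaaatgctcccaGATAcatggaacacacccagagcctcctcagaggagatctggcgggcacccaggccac
Rhox5: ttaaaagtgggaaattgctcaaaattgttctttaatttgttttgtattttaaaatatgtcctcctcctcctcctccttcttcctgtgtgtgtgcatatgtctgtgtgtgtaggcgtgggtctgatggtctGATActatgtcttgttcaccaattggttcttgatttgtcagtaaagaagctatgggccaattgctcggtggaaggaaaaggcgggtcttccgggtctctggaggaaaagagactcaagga

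The 4 letters GATA, on either strand, stood 2 times in the Hsd17b3 window and 1 time in the Rhox5 window. They are common, being found in 53.6% of 32851 promoter windows of this length. The longer form of the GATA motif, with A or T before these letters and A or G after them, was in 26.5% of the windows on either strand and in neither of these. The GC-rich WT1 motif GCGGGGGCG was in 2.57% of them, likewise in neither. Such a match describes letters in a window and says nothing about binding.

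Gata6 was highest in the testis line. Its log2 ratio there was 1.86, followed by 0.20 in kidney, -0.96 in liver and -1.67 in myoblast. The myeloma arrays read -2.02 and -2.03, the mammary tumor arrays -2.67 and -1.95, skin -2.44 and the fibroblast arrays -2.58 and -2.83. T-cell lymphoma stood at -2.88, embryo fibroblast at -2.92 and macrophage lowest at -4.27. The testis array thus lay above all 13 others, and besides it only the kidney array was above the pool. In a line, RNA from a part of the cells and a lower level in every cell cannot be told apart.

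The testis line exceeded the mean of the other 10, weighted equally, by 4.05 ± 0.39 for Gata6 (standard error of the fit), a 16.6-fold difference (limma adjusted p = 0.0402). A probe was called at an adjusted p under 0.05, with adjustment over all 7423 probes tested. In this comparison 26 probes were called (0.350%), and Gata6 and Wt1 were the 2 called among the 10 member probes, both higher. The Gata6 difference ranked 7 among the 7423. The median difference over all probes was -0.02. The gap of 1.65 between testis and kidney, each with 1 array, exceeded 1.26. That is how far the unadjusted 95% interval of such a difference reaches to either side for this probe. Between kidney and liver the gap was 1.16, within that reach, as were the gaps between all further neighbours in the order down to embryo fibroblast. Macrophage lay 1.35 below embryo fibroblast, beyond it. Here and below, neighbours were picked by the order of the same values and the intervals are unadjusted, so these gaps are descriptions.

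Macrophages were called lower for Gata6. Against the other 10 lines the macrophage line differed by -2.69 ± 0.39 (limma adjusted p = 0.0190), in a comparison where 4.07% of probes were called. With quantile normalization this difference was -1.78 (adjusted p = 0.110), and over 13 other settings the adjusted p ran from 0.0121 to 0.110. Across all 11 lines at once, Gata6 varied beyond the spread between arrays (limma moderated F = 20.6, adjusted p = 0.0223). Of all probes 8.00% passed this F test, and of the 10 member probes Gata6 and Rhox5 passed.

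Wt1 was the gene most restricted to the testis line. It read 1.72 there and was below the pool on every other array, in a narrow band. The next values were -1.36 and -1.98 on the fibroblast arrays, -1.84 in skin, -1.59 and -2.39 on the myeloma arrays and -2.04 in embryo fibroblast. The mammary tumor arrays read -1.94 and -2.17, macrophage -2.16, T-cell lymphoma -2.23, liver -2.27, myoblast -2.71 and kidney -2.75. No value of another line came within 3 log2 units of the testis value.

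The difference of the testis line from the other 10 was 3.89 ± 0.44, or 14.8-fold (limma adjusted p = 0.0491), and ranked 12 among all probes. From testis down to the fibroblast mean the gap was 3.38, against the 1.23 that the 95% interval reaches to either side. None of the gaps between the remaining 10 lines, at most 0.44, exceeded its own reach. In the F test over all lines Wt1 did not pass (F = 8.37, adjusted p = 0.0598). Although WT1 serves kidney development too, the kidney line had the lowest value of all, and its difference from the other lines was not called. Kidney lay only 0.05 below myoblast, while the median over all probes was -0.406 on the kidney array and -0.069 on the myoblast array.

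**Figure D1:**
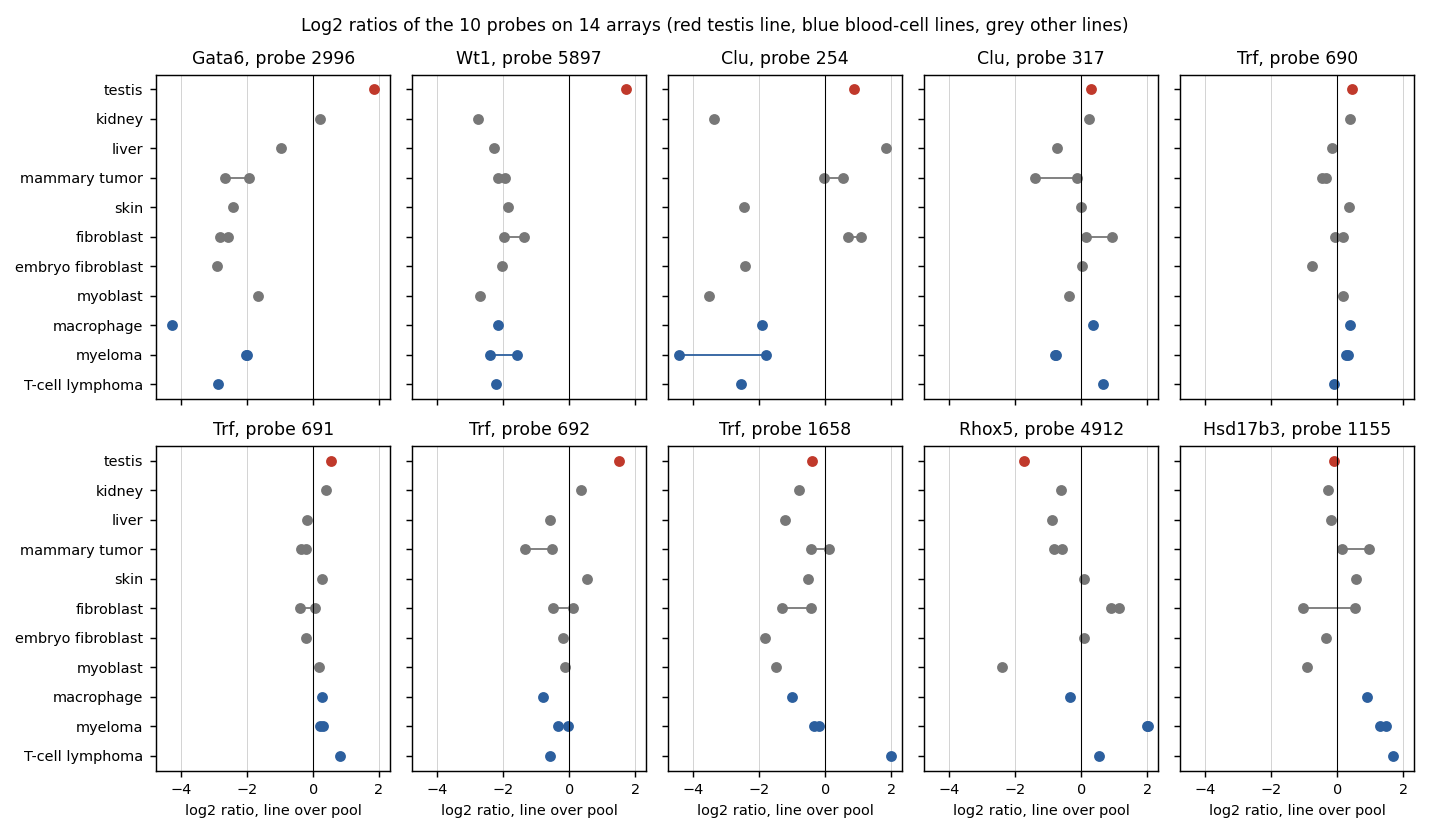
Log2 ratio of line over pool (horizontal axis) for each of the 10 probes in the 11 lines (vertical axis), 1 point per array, with a bar joining the 2 arrays of a line. Red is the testis line, blue the blood-cell lines and grey the others. The testis point is 1.86 for Gata6 and 1.72 for Wt1, apart from all other lines, and lies at -1.74, near the low end, for Rhox5.

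Both calls in the testis line sit close to the threshold. Leaving out 1 of the replicated arrays moved the Gata6 difference only between 4.02 and 4.09 among the settings that ended its call, but raised its adjusted p. It became 0.110 and 0.103 when mammary tumor array 1 and 2 were dropped in turn, 0.0977 and 0.101 for the myeloma pair, and 0.0534 for fibroblast array 1. The corresponding values for Wt1 were 0.141, 0.145, 0.0977, 0.101 and 0.0534, and with robust moderation it reached 0.0545 (limma throughout). Against the 7 other lines outside the blood-cell lineage the differences were 3.68 ± 0.40 for Gata6 and 3.90 ± 0.45 for Wt1, with limma adjusted p = 0.0625 for both. No probe of the array was called in that comparison (0%), though 850 had an unadjusted p under 0.05. With quantile normalization 32 were called, among them Gata6 (3.92) and Wt1 (4.17), both at adjusted p = 0.0225. Within the image run of the testis array, a run of neighbouring image numbers in the labels, the testis line exceeded its 4 companion lines (liver, macrophage, fibroblast and myeloma) by 4.38 for Gata6 and by 3.81 for Wt1.

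The series title asks what single lines contribute to the pool. Dividing the unlogged ratio of a line by the sum over all 11 lines gives its share, which equals its part of the pooled transcript if the lines entered in equal amounts. The testis line held 59.1% of the sum for Wt1 and 54.0% for Gata6, with kidney next for Gata6 at 17.2%. An even spread would give each line 9.09%. Only 1 of the 7423 probes had a larger testis share than Wt1 and 4 had a larger one than Gata6, and over all probes the largest share of any line had a median of 16.2%. A gene made by 1 line alone would stand at 3.46 in that line, which both genes stayed well under. The mean unlogged ratio over lines was 0.505 for Wt1 and 0.610 for Gata6, where an equal mixture would give 1, so these shares are rough. Taken against the 1 of an equal mixture instead of the measured sum, both testis shares would be smaller. They would be multiplied by 0.505 for Wt1 and by 0.610 for Gata6.

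**Figure D2:**
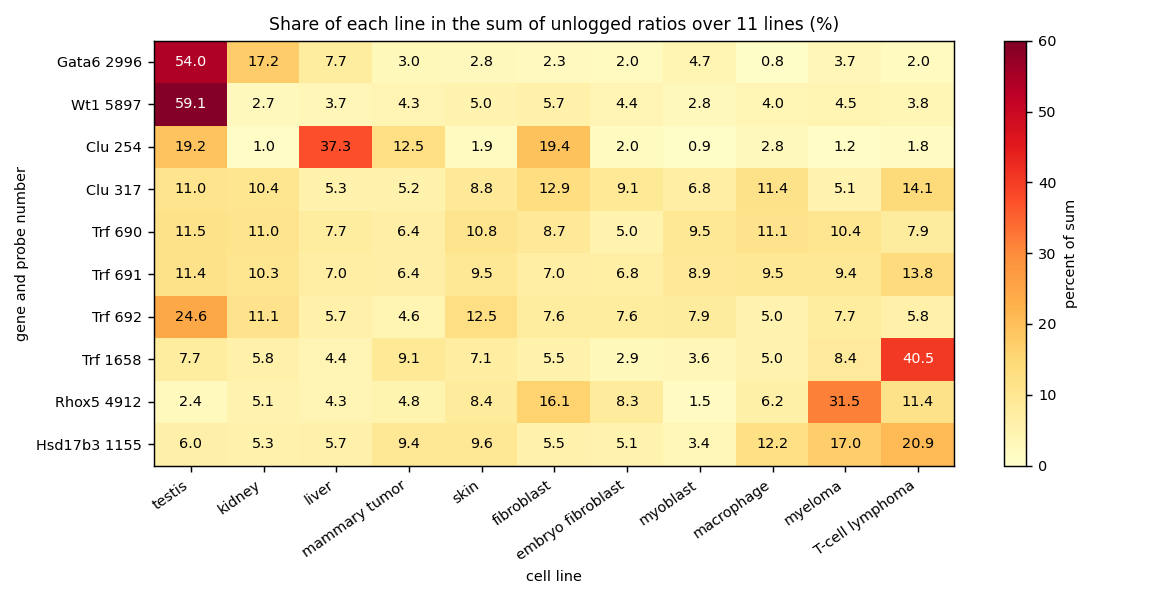
Share of each line (columns) in the sum of unlogged ratios over the 11 lines, in percent, for each of the 10 probes (rows), with darker cells for larger shares. Testis holds 59.1% for Wt1 and 54.0% for Gata6, T-cell lymphoma 40.5% for Trf probe 1658, liver 37.3% for Clu probe 254 and myeloma 31.5% for Rhox5.

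Clusterin, a secreted chaperone, gave different pictures with its 2 probes. Probe 254 read 1.83 in liver, 0.87 in testis, 1.09 and 0.69 on the fibroblast arrays and -0.05 and 0.54 on the mammary tumor arrays. It was far below the pool elsewhere: -1.91 in macrophage, -2.42 in embryo fibroblast, -2.46 in skin, -2.57 in T-cell lymphoma, -1.80 and -4.44 on the myeloma arrays, -3.38 in kidney and -3.53 in myoblast. Liver, fibroblast, testis and mammary tumor thus formed a high group with a step of 2.15 below it. That step was within the 2.35 that the 95% interval of such a gap reaches to either side. Liver held 37.3% of the summed ratio, fibroblast 19.4% and testis 19.2%.

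The testis line differed from the other lines by 2.51 ± 0.84 for this probe and was not called (limma adjusted p = 0.320), nor did the probe pass the F test (adjusted p = 0.0681). Its residual SD was 1.115, the widest of the 10 probes, and the myeloma arrays were the pair farthest apart. The other Clu probe, 317, stayed between -1.39 (mammary tumor array 1) and 0.95 (fibroblast array 1), and its F test gave an adjusted p of 0.420. Over the 11 line means the 2 probes were unrelated (Pearson r = -0.099, a description with no test). In liver probe 254 was highest while probe 317 read -0.75.

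Transferrin carries iron in the blood and across the tubule wall. Of its 4 probes, 690 and 692 were highest in testis and 691 and 1658 in T-cell lymphoma. The leads over the next line were only 0.05 for 690 and 0.27 for 691, within the 1.09 and 1.15 that the 95% interval reaches to either side. None of the 4 passed the F test over all lines (limma adjusted p = 0.399 for 690, 0.498 for 691, 0.224 for 692 and 0.103 for 1658). Probe 692 was highest in the testis line at 1.50, followed by 0.53 in skin and 0.35 in kidney. It read -0.13 in myoblast, -0.33 and -0.02 on the myeloma arrays, -0.19 in embryo fibroblast, -0.50 and 0.11 on the fibroblast arrays and -0.59 in T-cell lymphoma. Liver, an organ that secretes transferrin, stood at -0.59, macrophage at -0.81, and the mammary tumor arrays at -1.33 and -0.52. The testis array was again above all others. Its gap of 0.97 to skin was, however, within the 1.43 that the 95% interval reaches to either side.

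For probe 692 the testis line differed from the other lines by 1.78 ± 0.44, 3.42-fold, which was not called (limma adjusted p = 0.211, and 0.133 to 0.415 over 13 other settings). Its pattern over the line means was closer to Gata6 (r = 0.756) and Wt1 (r = 0.724) than to any other Trf probe (at most r = 0.493). Of the other Trf pairs, 690 with 691 gave r = 0.607 and 691 with 1658 gave r = 0.642, while 690 with 1658 gave r = 0.106, all as descriptions over 11 line means. Probes 690 and 691 spanned 1.22 and 1.10 log2 units over all lines, with testis at 0.44 and 0.53.

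Probe 1658 of Trf stood out in T-cell lymphoma at 2.00, with mammary tumor array 1 next at 0.12 and embryo fibroblast lowest at -1.82. The T-cell lymphoma line differed from the other 10 by 2.85 ± 0.44 (7.23-fold, limma adjusted p = 0.0226), in a comparison with 4.58% of probes called. Its call ended with quantile normalization (2.24, adjusted p = 0.0895), without mammary tumor array 2 (0.0533) and without myeloma array 2 (0.0501). On the same array probe 691 read 0.80, its highest value of the 11 lines, with a difference of 0.70 ± 0.35 that was not called (limma adjusted p = 0.284). Probes 690 and 692 read -0.10 and -0.59 there.

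The T-cell lymphoma array also gave the highest value for many probes at large. It was the top line for 1515 of 7423 probes (20.4%), against 576 (7.76%) for testis. Of 30 germ cell probes it led in 14 and testis in 1. Of the 10 member probes it led in 4: Trf 1658, Trf 691, Clu 317 and Hsd17b3. What this breadth adds to the values of those probes was not tested.

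Rhox5, although named for reproductive tissue, was low in the testis line. It read -1.74 in testis, with myoblast alone lower at -2.40. Liver stood at -0.87, the mammary tumor arrays at -0.59 and -0.83, kidney at -0.62 and macrophage at -0.35. Embryo fibroblast and skin were near the pool at 0.08 and 0.09, T-cell lymphoma was at 0.53 and the fibroblast arrays were at 1.15 and 0.91. The myeloma arrays were highest and close together, at 2.02 and 1.99, and did not overlap with any other line.

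The myeloma line exceeded the others by 2.50 ± 0.25 for Rhox5, 5.65-fold (limma adjusted p = 0.00346), where 6.70% of probes were called. The call held in 12 of 13 other settings and ended without myeloma array 2 (2.51, adjusted p = 0.0655). Both myeloma arrays belong to 1 image run, so their spread holds no difference between runs. Myeloma lay 0.97 above fibroblast, beyond the 0.78 that the 95% interval reaches to either side. Further neighbours in the order did not differ beyond their own reach. Its share of the summed ratio was 31.5%, with fibroblast at 16.1% and testis at 2.36%.

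Rhox5 in myoblasts was called lower than in the other 10 lines (-2.35 ± 0.34, limma adjusted p = 0.0466, 0.795% of probes called). That call held in 6 of 13 other settings, and the adjusted p ran from 0.0380 to 0.130. It ended with quantile normalization, with the image run as a random block, with robust moderation and without either mammary tumor or either myeloma array, at differences between -2.36 and -2.29. The testis difference of -1.62 ± 0.34 was not called (adjusted p = 0.144). In the F test over the lines Rhox5 passed (F = 20.1, adjusted p = 0.0224).

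Hsd17b3, the testosterone-forming enzyme, was likewise not raised in the testis line, which read -0.10. The highest values came from blood-cell lines, with 1.69 in T-cell lymphoma, 1.31 and 1.48 on the myeloma arrays and 0.91 in macrophage. The mammary tumor arrays read 0.96 and 0.13, skin 0.56, the fibroblast arrays 0.55 and -1.03, liver -0.19, kidney -0.29, embryo fibroblast -0.34 and myoblast -0.92. By line means the 3 blood-cell lines were above all other lines, although mammary tumor array 1 exceeded the macrophage array. The largest spread within a line was that of the fibroblast arrays. In the F test over all lines Hsd17b3 did not pass (limma F = 2.40, adjusted p = 0.286).

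On line means, Hsd17b3 averaged 1.33 in the 3 blood-cell lines and -0.12 in the other 8. The difference was 1.45 ± 0.34, 2.74-fold (limma adjusted p = 0.0360), where 3.22% of probes were called. Over 12 other settings the adjusted p ran from 0.0236 to 0.0954 with 7 calls. The call ended with quantile normalization (1.07), without mammary tumor array 2 (1.40) or fibroblast array 2 (1.35), and without the embryo fibroblast (1.42) or kidney array (1.43). No other member probe was called in this comparison. Gata6 differed by -1.69 ± 0.89, Clu probe 254 by -1.54 ± 1.08, Rhox5 by 1.37 ± 0.65 and Trf probe 1658 by 1.15 ± 0.54, while for Wt1 the difference was -0.42 ± 0.73.

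**Figure D3:**
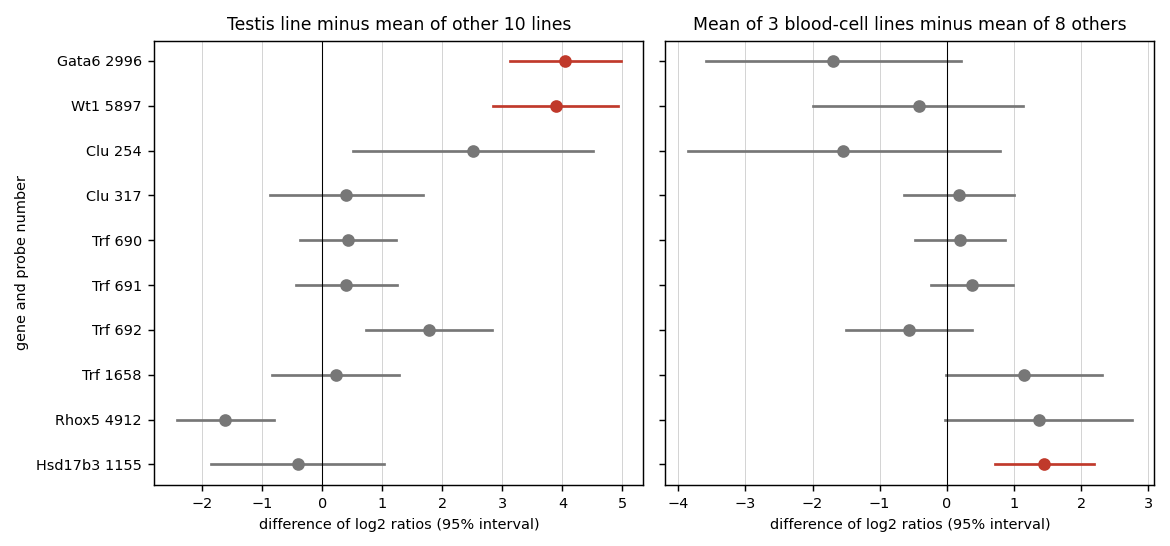
Differences of log2 ratios with 95% intervals for the 10 probes (vertical axis). Left, the testis line minus the mean of the other 10 lines, and right, the mean of 3 blood-cell lines minus the mean of 8 others, with called probes in red. Gata6 (4.05) and Wt1 (3.89) are called on the left and Hsd17b3 (1.45) on the right.

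When each of the 11 lines was set in turn against the rest, 4 of the 10 member probes were called at least once: Gata6, Wt1, Rhox5 and Trf probe 1658. Of all probes 14.8% were. The count of 4 rests on few probes of genes chosen with earlier results of these data known, and no test of the list was made.

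The testis line was set against markers of the cells a testis holds. As background, of all 6408 genes tested 21 were called higher and 4 lower in it, and 800 (12.5%) had an unadjusted p under 0.05 on at least 1 probe. Of 27 further Sertoli cell genes on the array, 0 were called in the testis line by limma, with 5 at an unadjusted p under 0.05, and their median difference of 0.08 lay near that of all genes, 0.00. Kitl, the Sertoli ligand for the germ cell receptor Kit, was the 1 gene of this list that was highest in testis, with differences of 2.00 ± 0.51 and 0.97 ± 0.37 on its 2 probes (adjusted p = 0.211 and 0.372). The defining genes Sox9, Amh, Fshr, Dhh and Inha read -2.11, 0.01, 0.31, -0.52 and -0.91 there, none of them highest in testis.

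Of 15 further genes of Leydig cells and steroid synthesis, 1 was called. Vcam1, a cell adhesion molecule that this list shares with many other cell types, read 2.42 in testis and was higher by 3.84 ± 0.34 (limma adjusted p = 0.0402). The growth factor receptor gene Pdgfra, also at its highest in testis on probe 2385, differed by 2.76 ± 0.44 (adjusted p = 0.0862), and by 1.04 on its other probe. Star, which brings cholesterol into mitochondria, and the steroid hydroxylase gene Cyp21a1 were also highest in testis, at 0.22 and 1.05. Their differences of 1.30 ± 0.74 and 1.34 ± 0.49 were not called (adjusted p = 0.561 and 0.366). The steroid enzyme genes Cyp11a1, Cyp17a1 and Hsd3b1 read -0.13, 0.08 and -0.38. Of 10 other genes of the Hsd17b family and related dehydrogenases 0 were called in testis, with 1 at an unadjusted p under 0.05, and 0 were called between blood-cell and other lines, with 1 at an unadjusted p under 0.05. The 1 gene of this family that was highest in testis, H2-Ke6, read 0.80 (difference 0.60 ± 0.39).

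Among 27 gonadal transcription factor and cofactor genes 0 were called, with 4 at an unadjusted p under 0.05, and the median difference was 0.46 against 0.00 for all genes. Of these, 4 were highest in testis: Gata2 at 2.02, Cited2 at 1.57, Zfpm1, which encodes the GATA cofactor FOG1, at 1.17 and Emx2 at 1.10. Their differences were 2.00 ± 0.48, 1.67 ± 0.36, 1.91 ± 0.34 and 1.29 ± 0.41, with adjusted p between 0.103 and 0.302. Gata4, the partner of GATA6 in gonads, read 0.59 in testis and 1.03 in mammary tumor, where it was highest. Nr5a1, which encodes the steroidogenic factor SF-1, read -0.19.

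Ovarian genes gave 0 calls of 14 (3 at an unadjusted p under 0.05), although Fst (follistatin) and Wnt4 were highest in testis with differences of 3.10 ± 0.59 and 2.70 ± 0.48 (adjusted p = 0.121 and 0.102). The cell cycle inhibitor gene Cdkn1b was highest there too, at 0.27 (1.53 ± 0.44). For 30 germ cell genes there were 0 calls and 0 at an unadjusted p under 0.05, and Ddx4, a germ cell helicase gene, read -1.64, the lowest of all lines. Acrv1, a gene of the sperm acrosome, was the 1 germ cell gene highest in testis, at 0.62 (1.03 ± 0.60). The reproductive homeobox list had 2 genes on the array besides Rhox5, and for Rhox6 and Esx1 the testis differences were 0.34 and -0.13. Smooth muscle and peritubular genes (5) and mesothelial genes (5) had 0 calls, with 1 and 0 at an unadjusted p under 0.05. So did 13 hepatocyte genes, with 0, and 12 pan-leukocyte genes, with 5 and a median difference of -1.01.

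**Figure D4:**
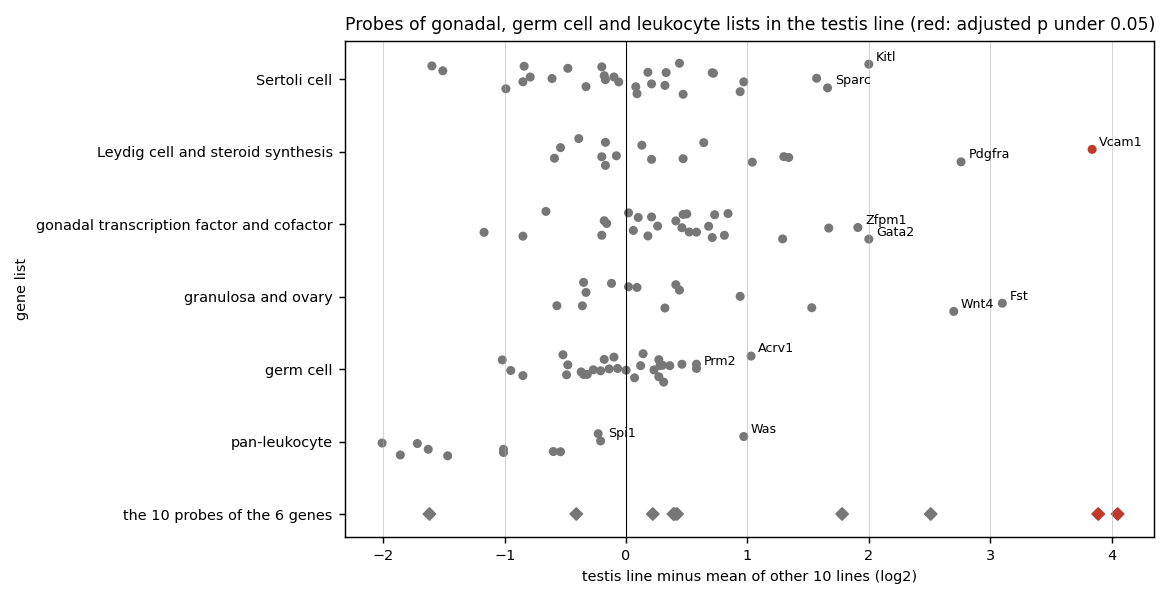
Differences between the testis line and the mean of the other 10 lines on the log2 scale (horizontal axis) for probes of 6 gene lists (vertical axis), 1 point per probe, with the 10 member probes as diamonds in the last row and red for called probes. Vcam1 (3.84), Gata6 (4.05) and Wt1 (3.89) are the called ones, and the highest 2 probes of each list are named.

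For the partners of transferrin and clusterin, 0 of 15 iron genes and 0 of 17 apolipoprotein and clusterin receptor genes were called in testis by limma, with 2 and 3 at an unadjusted p under 0.05. The transferrin receptor gene Tfrc read -1.39 in testis, and Ncoa4, which encodes the receptor for ferritin turnover, was highest there at 1.38 (1.03 ± 0.56). In the other list the lipoprotein lipase gene Lpl was highest there at 1.90 (2.58 ± 0.40, adjusted p = 0.0828). Since both secreted proteins are also liver products, 13 hepatocyte genes were looked up in the liver line. Alb (albumin) read 0.33, Ttr (transthyretin) 0.05, Afp 0.14 and Apoa1 -0.93, and 2 of the genes, Foxa2 and Rbp4, were highest in liver. Among the 11 lines, liver thus ranked 7 for Alb and for Ttr, 8 for Afp and 10 for Apoa1. For Clu probe 254 it was the highest line, at 1.83.

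Between blood-cell lines and the other 8, the check on the direction of the ratios was clear, with 10 of 12 pan-leukocyte genes higher and 0 lower (median difference 3.15 against 0.10 for all genes). The leading ones were Coro1a (4.67), Rac2 (4.42), Lcp1 (4.34), Laptm5 (3.95) and Cd53 (3.86). As background, 155 of all 6408 genes (2.42%) were lower in the blood-cell lines and 69 (1.08%) higher. Of the 27 Sertoli genes 6 were lower and 0 higher. They included the matrix gene Sparc (-4.32), the gap junction gene Gja1 (-3.80), vimentin (-2.98 for Vim), the tight junction gene Tjp1 (-2.84) and the cadherin gene Cdh2 (-2.61), which many adherent cells make, and Inhba (-1.68), which encodes an activin subunit. Zfpm2, the FOG2 cofactor gene of GATA factors, was lower by 1.96 ± 0.39 on the log2 scale in the blood-cell lines (limma adjusted p = 0.0174). Vcam1 (-3.63), the lipoprotein receptor gene Lrp1 (-2.93), Tpm2 (-3.85) and Msln (-4.22) were lower too, and the germ cell gene Ddx4 was higher (1.43). No gene of the iron, hepatocyte or reproductive homeobox lists was called between these groups, with 2, 5 and 1 at an unadjusted p under 0.05, against 1298 of all 6408 genes (20.3%). Of 30 germ cell genes 9 were at that level. Outside the pan-leukocyte list, median differences of the lists ran from -1.06 for smooth muscle and peritubular genes to 0.82 for reproductive homeobox genes. They were 0.70 for hepatocyte and 0.55 for germ cell genes, beside 1.45 for Hsd17b3.

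The probes most like each member over the 11 line means were listed as a description, since all lines share the pool and 1 line can set such a correlation. For Wt1 they were Clec11a (r = 0.936), Bnc1 (0.930) and Cacna2d3 (0.911), each highest in testis, at 2.01, 1.65 and 1.57. For Gata6 they were Ap3s2 (0.890), Arhgap23 (0.874) and Spry1 (0.869), the last at 2.29 in testis and at most 0.74 elsewhere. Trf probe 692 went with Meis2 (0.944), Dct (0.891) and Nfe2l3 (0.861), again all highest in testis.

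Rhox5 was most like Srms (0.848), Tbx4 (0.835) and Rpia (0.829), all highest in myeloma. Clu probe 254 was most like Gsr (0.884), Eif2ak2 (0.884) and Dlx4 (0.843). Hsd17b3 went with Tnfsf14 (0.967), Rnase2b (0.960) and probe 7051 of Erbb4 (0.958), and Trf probe 1658 with Prl5a1 (0.963), Ebf2 (0.956) and Gabrb1 (0.951), all 6 highest in T-cell lymphoma. Clu probe 317 went with Prg3 (0.944), Tmprss15 (0.931) and Usp14 (0.910). Trf probe 690 went with Fiz1 (0.908), Tub (0.881) and Alas1 (0.878), and probe 691 with Slc30a1 (0.879), Psmg1 (0.851) and Pdyn (0.838).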

How the data were processed

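The authors' deposited value table gives 1 log2 ratio per spot and array for 7680 probes. The direction (line over pool) follows the dyes in the labels, which were never swapped. Base 2 is assumed, so folds rest on it. Background correction, normalization, spot filters and spot brightness were not stated in the labels or the table, so it is unknown which probes were above background. Probes were named from the platform annotation and updated through a RefSeq table (GRCm38.p6). The 80 Gapdh spots were averaged, and tests covered 7423 features that had values for each of the 11 lines. In the main fit the values were used as deposited, without centring. Array medians were -0.508 for embryo fibroblast, -0.406 for kidney and between -0.155 (testis) and 0.124 (skin) for the others. The order of lines with close values therefore depends on such offsets.

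One limma 3.58.1 fit (R 4.3.3, lmFit and eBayes, Benjamini-Hochberg, two-sided) used 14 arrays and 1 coefficient per line, with 3 residual and 3.75 prior degrees of freedom. A lone array is assumed to vary like the replicated lines. The lines of T-cell lymphoma, macrophage and myeloma origin formed the blood-cell group, compared with the other 8 on line means. Scripts were tested on simulated data. The number of arrays limits precision. Members, gene lists and tests were chosen with earlier results of these data known. The genes named were all member probes, defining markers and the 3 most alike probes of each member. Also named were list genes that passed (at most 5 per list and direction) or were highest in testis. Inhba, named beyond these 5 for the Sertoli list, is also on the ovarian list.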

Additional observations from a re-analysis of the deposited data

Results flagged for a closer look

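Wt1 in the testis line stood far from the other lines outside the blood-cell lineage. Its log2 ratio of 1.72 lay above the nearest of the other 7 lines, fibroblast at -1.67, by a gap that made up 0.757 of the whole range, against Dixon's critical value of 0.526 for 8 values. The lines differ by design, so the rule describes a gap and is no fault check. It was applied to 10 probes and flags about 1 group in 20 by chance. The testis line had 1 array, and a fault of that spot was not tested.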

How the results depend on the processing

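Under 13 other settings, 25 of 34 member comparisons stayed on the same side of the threshold, and no called difference changed sign. The counts over all probes moved more. In the testis line against the other 10, 26 calls became 52 with quantile normalization and 4 with robust eBayes. Without 1 replicated array they lay between 0 and 27, and were 0 in every case but the removal of fibroblast array 2. Against the 7 lines outside the blood-cell lineage, 0 calls became 32 with quantile normalization and 1 without the kidney array. Summed over all 11 lines, 1545 calls ranged from 568 to 2361 without 1 replicated array. In the F test, 594 calls became 962 with the image run as a random block and ranged from 0 to 752 without 1 replicated array. Between blood-cell and other lines, 239 calls became 111 with quantile normalization. Leaving out an array of a pair also removes 1 of 3 residual degrees of freedom. No paired analysis was possible because the labels number no array pairs across lines. Spot brightness was not used here, so signal over background sets no limit that could be given.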
